A study of Mus musculus with 12 samples.

Results

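The mitochondrial genome encodes a small set of respiratory chain subunits, and 10 of its 13 protein genes are described here from RNA-seq counts across 4 treatments of mouse breast cancer cells. The genes were chosen by symbol, as the rows of the deposited count table whose Ensembl identifiers map to mt-Nd1, mt-Nd2, mt-Nd4, mt-Nd5, mt-Nd6, mt-Co1, mt-Co2, mt-Co3, mt-Cytb and mt-Atp6. All 10 were found among 55414 gene identifiers, and all 10 were among the 11332 genes with enough counts to be tested. EO771-tdT-LM2, a derivative of the mouse mammary cancer line EO771, was labelled wild type. Low glucose was common to every group: the medium held 10 mg/dl glucose and 1% FBS during the 30 minutes before seeding and during the 24 hours of treatment. The 3 control libraries came from cells given 0.1% BSA and 2.5 µg/mL IgG, the carrier and the control antibody. GDNF, a neurotrophic growth factor, was given at 200 ng/mL with the IgG in 3 libraries. An antibody against NCAM1 was given at 2.5 µg/mL with BSA in 3 further libraries, and the last 3 received GDNF and anti-NCAM1 together. BSA was listed for the groups without GDNF and not for those with it, so an effect of GDNF cannot be told apart from one of BSA. NCAM1 is a cell adhesion molecule that can also serve as a GDNF receptor. The labels call the libraries of a group triplicates without saying whether they came from separate experiments, so the p-values measure only the spread between these samples.

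Mitochondrial DNA is a compact circle whose strands are each copied into long RNAs that run through many genes, and the messages are released by cutting at the tRNAs that lie between them. The heavy-strand transcript carries the rRNAs and nearly all messages, while mt-Nd6 is read from the opposite strand. The proteins are core subunits built into the inner membrane: the ND proteins belong to complex I, which takes electrons from NADH, cytochrome b to complex III, the CO proteins to complex IV, which passes electrons to oxygen, and ATP6 to the proton channel of ATP synthase. Their partner subunits are encoded in the nucleus, imported and assembled with them. Pieces of mitochondrial DNA have also been copied into the nuclear genome over evolution, and a long copy of this kind lies on mouse chromosome 1.

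The nuclear copies bear on how these counts can be read, and the sequences that follow show how closely they match. The coordinates and bases are those of GENCODE M21 on GRCm38. The submitters' processing notes name GRCm39 and mm10 without a role, so the build behind the counts is not stated. The first pair shows the end of mt-Co2 (chrM:7637-7696, plus strand) and the end of its nuclear copy, the unprocessed pseudogene Gm28661 (chr1:24614885-24614941, minus strand). Capitals mark the bases that lie in 31-base words found in both genes. The second pair shows where the match of mt-Nd4 (chrM:11003-11082, plus strand) to the pseudogene Gm28439 (chr1:24611535-24611574, minus strand) stops, with the shared bases in capitals. All are written 5′ to 3′ along the gene.
mt-Co2: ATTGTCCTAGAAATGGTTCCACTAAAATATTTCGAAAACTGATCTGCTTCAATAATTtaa
Gm28661: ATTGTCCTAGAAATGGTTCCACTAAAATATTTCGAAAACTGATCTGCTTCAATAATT
mt-Nd4: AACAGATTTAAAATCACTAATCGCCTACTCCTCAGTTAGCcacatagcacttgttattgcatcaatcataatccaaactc
Gm28439: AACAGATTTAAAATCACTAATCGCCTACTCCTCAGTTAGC

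The copy of mt-Co2 is identical over 681 of the 684 bases of the gene, and no 31-base word of mt-Co2 is free of a nuclear match. The copies of mt-Atp6 (Gm10925, 678 of 681 bases) and mt-Co3 (Gm28437, 783 of 784 bases) are as complete. The copy of mt-Nd4 ends after 876 of 1378 bases, which leaves 502 words of that gene that occur in no other gene. Words of 31 bases, the default length used by kallisto, were also found in nuclear genes for 63.9% of mt-Co1, 16.8% of mt-Nd5, 13.5% of mt-Nd2, 7.36% of mt-Nd6, 6.55% of mt-Cytb and 0% of mt-Nd1. The last pair shows mt-Nd5 (chrM:13506-13565, plus strand) and mt-Nd6 (chrM:13552-13611, minus strand), which lie end to end on opposite strands. Capitals mark the 14 bases that the annotated genes share, each read on its own strand. Whether strand was used in counting is not stated. The overlap is shorter than a 31-base word, and 0% of the words of mt-Nd5 and of mt-Nd6 occur in another mitochondrial gene on either strand.
mt-Nd5: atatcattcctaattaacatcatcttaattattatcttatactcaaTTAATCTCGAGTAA
mt-Nd6: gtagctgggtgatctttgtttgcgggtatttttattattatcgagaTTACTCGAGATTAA

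The 10 messages fell into 7 that were well counted and 3 that were almost uncounted. The lowest of the 7, mt-Nd6, had 1642 to 3040 counts per library. By contrast, mt-Co2 had 14 to 69 counts, mt-Co3 had 17 to 44 and mt-Atp6 had 8 to 48. These are the 3 genes whose words are nearly all shared with a nuclear gene. The copies held few counts as well: Gm28661 held 70 to 137 counts per library, Gm28437 47 to 104 and Gm10925 194 to 509. Among the protein genes outside the 10, mt-Nd3 (98.1% shared) and mt-Nd4l (98.9% shared) had 0 to 5 counts per library. The third, mt-Atp8, had 0 to 1 counts although only 7.47% of its words are shared, and it is 204 bases long. The handling of reads with several matching genes is not given in the sources used here, and the cause of the low counts was not tested. The values of mt-Co2, mt-Co3 and mt-Atp6 are therefore uncertain as levels of these messages and are kept apart below.

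**Figure D1:**
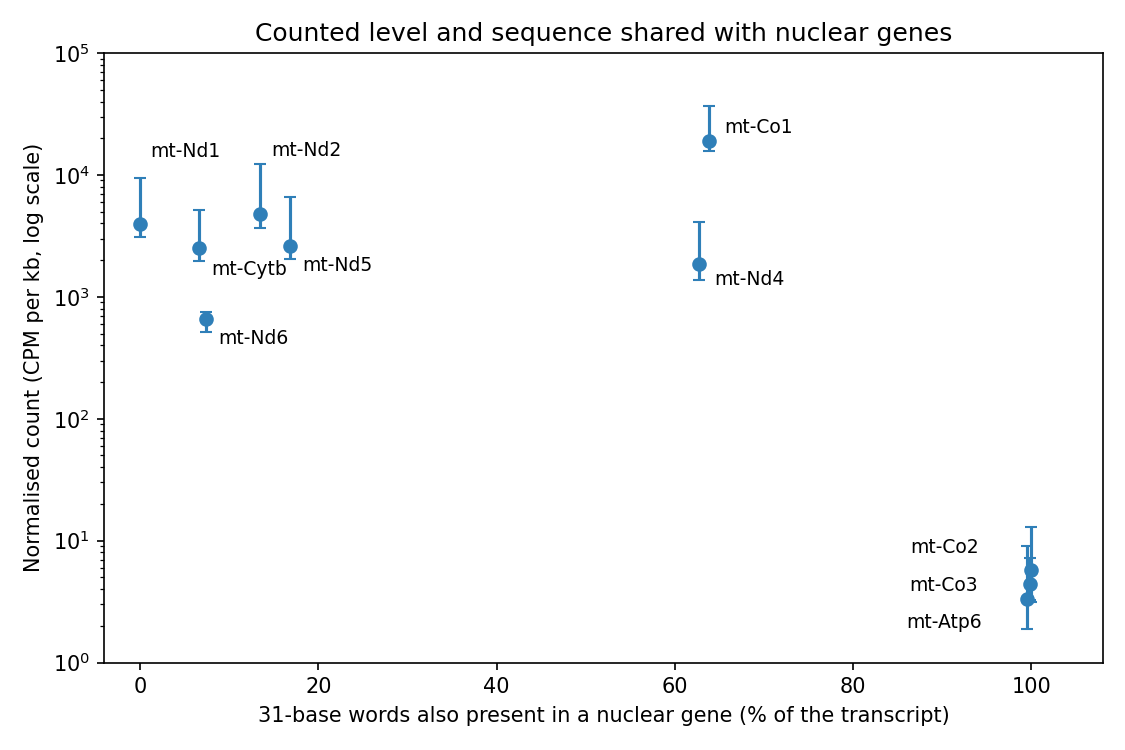
Mean normalised count of each of the 10 genes per kilobase of transcript (log scale; bars span the lowest and highest of the 12 libraries) against the percentage of its 31-base words that also occur in a nuclear gene. The 3 genes above 99% lie near 3 to 6 CPM per kb, whereas mt-Co1 and mt-Nd4, with 63.9% and 62.8% shared, are among the well-counted genes.

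Levels between genes are compared per kilobase of transcript, in normalised read counts (CPM, each library scaled to a common size by TMM). The subunit I message of complex IV, mt-Co1, was the highest at a mean of 18904 CPM per kb over the 12 libraries and made up 60.1% of all counts on the 10 genes. It stood 3.95-fold above mt-Nd2 (4790.4 CPM per kb), a core membrane subunit of complex I. The next level was that of mt-Nd1 (3959 CPM per kb), which lies beside the quinone site of complex I. These 3 genes held the same ranks in all 12 libraries. The proton-pumping subunit mt-Nd5 (2622 CPM per kb) and cytochrome b, mt-Cytb (2506 CPM per kb), could not be ordered, since mt-Nd5 was the higher in only 6 of 12 libraries. Below them came mt-Nd4 (1862 CPM per kb), another proton-pumping subunit, and mt-Nd6 (659.9 CPM per kb), and both again held their ranks in all 12 libraries. The 3 poorly counted genes followed at 5.78 CPM per kb for mt-Co2, 4.37 for mt-Co3 and 3.31 for mt-Atp6, and their ranks changed between libraries.

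The labelled cell type was checked against marker genes, and 1 library stood apart. Krt8, an epithelial keratin, averaged 537 CPM and Epcam 15.4 CPM, while 5 of 9 epithelial markers (Krt7, Krt19, Cldn3, Cldn4 and Cldn7) were at 0 in every library, Krt18 had 0 to 1 counts and Cdh1, E-cadherin, 0 to 4. Of the 4 mesenchymal markers, Vim averaged 5313 CPM and Zeb1 157 CPM, while Fn1, fibronectin, had 0 to 1 counts and Cdh2, N-cadherin, was at 0 in every library. Of the 5 fibroblast markers, Col1a1 averaged 306 CPM, Pdgfra 228 CPM and Col3a1 155 CPM. Dcn had 0 to 1 counts, and Lum was at 0 in every library. Their summed level was 726 to 770.1 CPM in control and lower in each treated group. It was 599 to 697 CPM with GDNF, 659 to 717 CPM with anti-NCAM1 and 679 to 694 CPM with both agents. Of the 4 basal and myoepithelial markers, Acta2 averaged 735 CPM and Krt14 2.25 CPM, while Krt5 and Trp63 were at 0 in every library. Summed leukocyte markers lay between 9.47 and 13.3 CPM, endothelial markers between 1.80 and 3.84 CPM, and adipocyte markers between 0 and 0.310 CPM. Libraries held 5616398 to 8093754 counts, so that 3 counts amount to 0.371 to 0.534 CPM. GDNF replicate 3 stood apart from the other 11. The most abundant feature of the table, an identifier without a symbol, took 0.543% of its counts against 3.79 to 9.84% elsewhere, and Lars2, the mitochondrial leucyl-tRNA synthetase, took 0.0372% against 0.236 to 0.793% (both were singled out after their values were seen). The part of these features and of the marker levels in the results was not tested. For the comparisons that include the GDNF group, the main values are also given without it. All 12 libraries shared 1 estimate of the spread in the fit. This library therefore also entered the SE and p of the comparisons between the other groups.

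The 10 genes took 4.04, 3.97 and 4.28% of the counts in control replicates 1 to 3. With GDNF they took 4.39, 5.12 and 10.0% (Wilson 95% interval of the last, 10.0 to 10.1%, for counting error only). With anti-NCAM1 the shares were 4.48, 4.12 and 4.60%, and with GDNF and anti-NCAM1 together they were 4.27, 4.22 and 4.39%. GDNF replicate 3 thus had a share far above every other library, GDNF replicate 2 was second, and GDNF replicate 1 lay above the controls and below 2 of the anti-NCAM1 libraries. The mean share was 4.10% ± 0.161 (SD, n = 3) in control, 6.52% ± 3.08 with GDNF, 4.40% ± 0.246 with anti-NCAM1 and 4.29% ± 0.0892 with both. In bulk libraries such as these, a change in RNA per cell, in mitochondrial genomes per cell and in the make-up of the culture cannot be told apart.

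**Figure D2:**
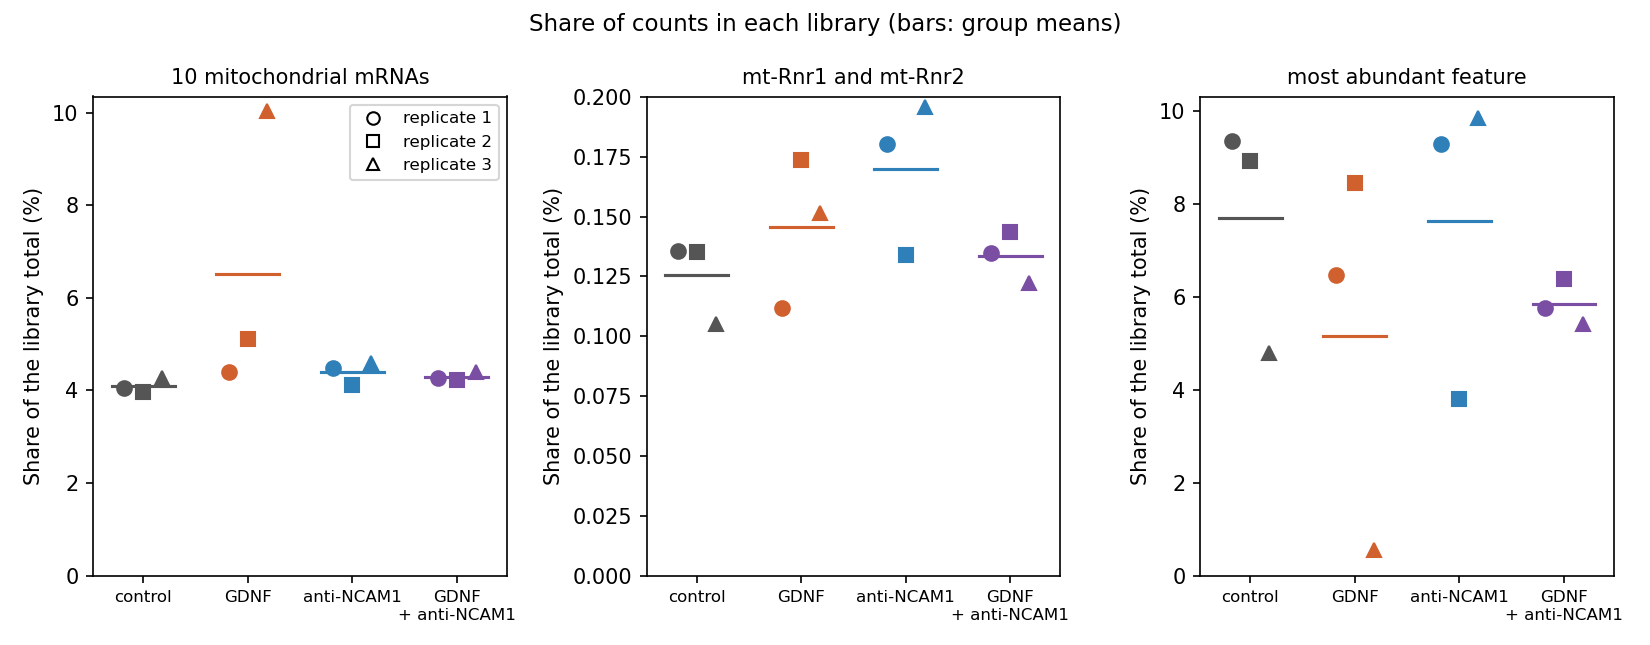
Percentage of each library's counts on the 10 mitochondrial messages (left), on the 2 mitochondrial rRNAs (middle) and on the most abundant feature of the table (right), with 1 point per library and bars at group means. GDNF replicate 3 is highest for the messages, at 10.0%, and lowest for the most abundant feature, at 0.543%, while its rRNA share of 0.152% lies within the range of the other libraries.

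The first comparison asks whether the mitochondrial messages differed between GDNF with control IgG and BSA with the same IgG. All 6 well-counted heavy-strand messages were higher in each of the 3 GDNF libraries than in any control library, by 1.06 to 1.10-fold of the control mean in replicate 1, 1.24 to 1.46-fold in replicate 2 and 2.27 to 3.27-fold in replicate 3. The light-strand message mt-Nd6 did not share this pattern. Counting all 10 genes, the groups did not overlap, with GDNF higher, for 8, against 9.89% of all tested genes. The 3 GDNF libraries spread widely, and 0 of the 10 genes, and 0.0% of all genes, passed an adjusted p of 0.05 (edgeR quasi-likelihood test, Benjamini-Hochberg over 11332 genes).

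Among the complex I subunits, mt-Nd2 was at 3947, 3823 and 3966 CPM in control replicates 1 to 3 and at 4296, 5606 and 12789 CPM with GDNF. Its groups did not overlap, and replicate 3 set most of the difference (log2 fold change 0.95, SE 0.26, adjusted p = 0.165 by edgeR with Benjamini-Hochberg adjustment, as for the values that follow). For mt-Nd5 the control libraries read 3905, 3709.9 and 3803 CPM and the GDNF libraries 4092, 5381 and 11909 CPM. The groups were again apart, with a log2 fold change of 0.91 (SE 0.25, adjusted p = 0.165). The control level of mt-Nd1 was 2966, 2975 and 3146 CPM, and its GDNF level was 3264, 4142 and 9026 CPM. It differed by 0.85 on the log2 scale (SE 0.24, adjusted p = 0.165). Counts of mt-Nd4 were 2161, 2084 and 2207 CPM in control and 2283, 2870.2 and 5684 CPM with GDNF. Here the log2 fold change was 0.75 (SE 0.22, adjusted p = 0.165). In these 4 genes the libraries kept the same order, from control to GDNF replicate 1, 2 and 3. The light-strand message mt-Nd6 was at 356, 352 and 349 CPM in control and at 374, 299.6 and 389 CPM with GDNF. Its groups overlapped, GDNF replicate 2 being below and the other GDNF libraries above the controls, and the log2 fold change was 0.0069 (SE 0.095, adjusted p = 0.970).

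Cytochrome b, the complex III subunit that carries both quinone sites, was at 2399, 2354 and 2394 CPM in control and at 2575, 3477 and 5859 CPM with GDNF. The groups did not overlap, and mt-Cytb had the smallest SE of the 6 heavy-strand messages (log2 fold change 0.74, SE 0.19, adjusted p = 0.165, edgeR). In complex IV, mt-Co1, which holds the oxygen-reducing centre, read 25446, 24529.7 and 25707 CPM in control and 26846, 31314 and 57248 CPM with GDNF. This was the smallest fold change of the 6 heavy-strand messages, 0.61 on the log2 scale (SE 0.20, adjusted p = 0.169).

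The 3 poorly counted genes leaned the same way on far fewer reads. For mt-Co2, the copper-carrying subunit of complex IV, the levels were 3.93, 2.44 and 3.24 CPM in control and 4.05, 4.02 and 8.83 CPM with GDNF (log2 fold change 0.85, SE 0.36, adjusted p = 0.214, edgeR). Those of mt-Co3, the third core subunit, were 2.78, 2.57 and 3.12 CPM in control and 2.90, 3.87 and 5.63 CPM with GDNF (log2 fold change 0.56, SE 0.28, adjusted p = 0.264, edgeR). The groups of mt-Co3 overlapped, and those of mt-Co2 were separated by a margin within counting error. The ATP synthase subunit mt-Atp6 read 1.31, 1.28 and 1.32 CPM in control and 1.59, 1.94 and 6.14 CPM with GDNF (log2 fold change 1.33, SE 0.45, adjusted p = 0.169, edgeR). It had the largest fold change of the 10, on 8 to 48 counts per library. With the counts of the nuclear copies added to them, an alternative chosen after seeing the data, the log2 fold changes were 0.57 for mt-Co2, 0.52 for mt-Co3 and 0.79 for mt-Atp6.

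In this comparison 8 of the 10 genes had an unadjusted p under 0.05, all higher with GDNF, where 11.6% of all tested genes did so. DESeq2 and limma-voom called 0 genes, as edgeR did, and at an unadjusted p under 0.05 in either direction edgeR had 2303 genes (20.3%). All 10 had a log2 fold change above 0 (50.3% of all genes). Their median was 0.80, and that of all tested genes was 0.0021.

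Single libraries decided the size and the call. Without GDNF replicate 3 the median log2 fold change of the 10 was 0.30, 9 of 10 were above 0 (mt-Nd6 was at -0.073), and 6 of 10 had an unadjusted p under 0.05, all higher, where 11.6% of all genes had one in either direction. In that fit the 6 heavy-strand messages lay between 0.20 for mt-Co1 (SE 0.071) and 0.34 for mt-Cytb (SE 0.087). None then passed (edgeR adjusted p = 0.186 for mt-Nd1, mt-Nd2, mt-Nd5 and mt-Cytb, 0.251 for mt-Nd4 and 0.268 for mt-Co1). Without GDNF replicate 1, in which the levels were nearest to control, the median was 1.02 and 8 of 10 passed, all but mt-Co3 and mt-Nd6, in a fit that called 2714 genes. With no filter on low counts 8 of 10 passed as well, among 736 genes. That fit held every gene with any count, not the 11332 tested elsewhere. The log2 fold change of mt-Nd2 was 0.96 there and 0.95 in the main fit, while its SE was 0.079 and 0.26. These calls rest on the same counts and are no further support.

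**Figure D3:**
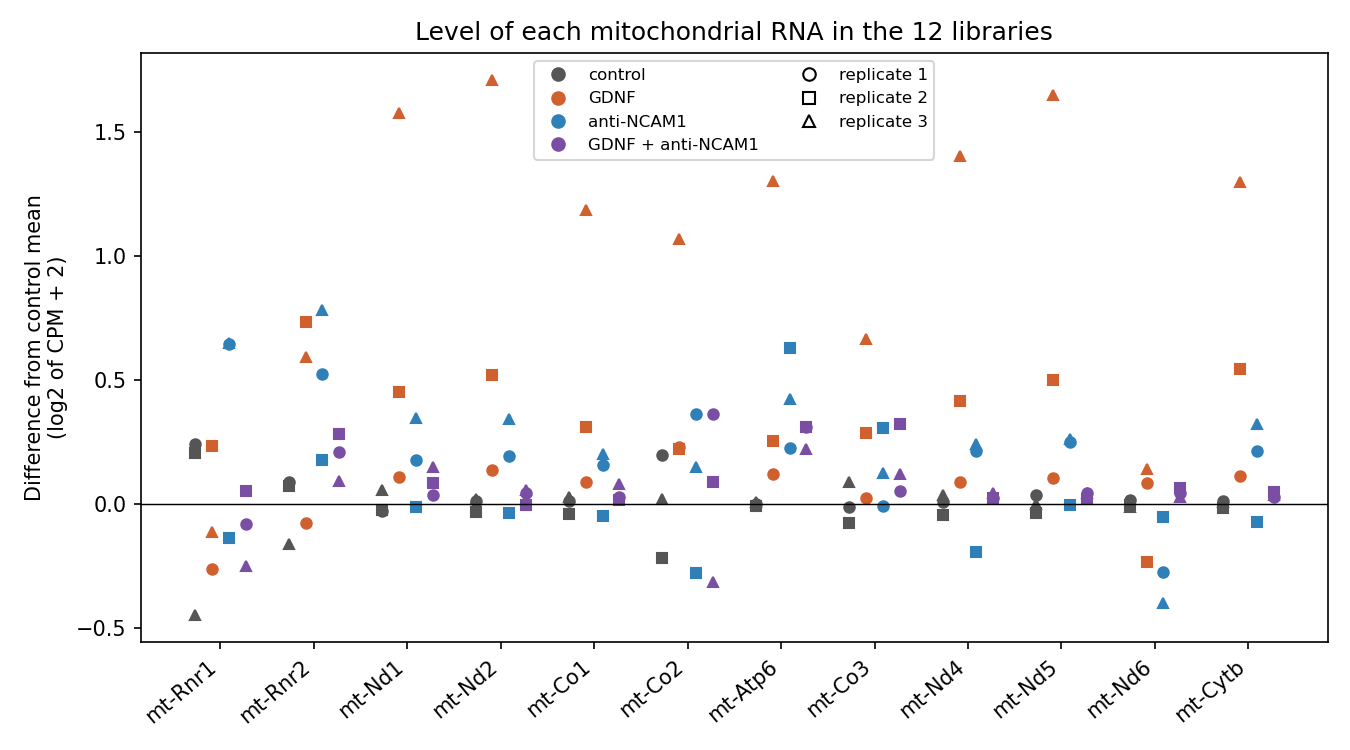
Difference of each library from the control mean in log2(CPM + 2), for the 10 messages and the 2 mitochondrial rRNAs in the order of the genome, with colour for group and marker shape for replicate. GDNF replicate 3 lies 1.18 to 1.71 above control for the 6 well-counted heavy-strand messages and at 0.14 for mt-Nd6, and the control libraries of these 7 genes lie close to 0.

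The second comparison asks what anti-NCAM1 did to cells that also received GDNF. The levels with GDNF and anti-NCAM1 together were near those of control, so the differences from GDNF alone mirrored those above. They share the GDNF libraries with the first comparison, and GDNF replicate 3 enters both.

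With both agents, mt-Nd2 was at 4032, 3895 and 4069 CPM, below each GDNF library (log2 fold change -0.92, SE 0.26, adjusted p = 0.331, edgeR with Benjamini-Hochberg adjustment throughout). For mt-Nd5 the levels were 3922, 3859 and 3924 CPM (-0.87, SE 0.25, adjusted p = 0.331). The levels of mt-Nd4, at 2184, 2189 and 2219 CPM, were also below GDNF (-0.72, SE 0.22, adjusted p = 0.331). In mt-Nd1 the groups overlapped, since 3109, 3208 and 3359.9 CPM with both agents reached past the lowest GDNF library (-0.76, SE 0.24, adjusted p = 0.331). The light-strand mt-Nd6 was at 364, 369 and 360.0 CPM, within the range of the GDNF libraries (0.04, SE 0.096, adjusted p = 0.851).

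Outside complex I, mt-Cytb read 2429, 2463 and 2441 CPM with both agents (-0.70, SE 0.19, adjusted p = 0.331, edgeR). The level of mt-Co1 was 25720.4, 25479.7 and 26694 CPM (-0.57, SE 0.20, adjusted p = 0.331, edgeR). Both lay below each GDNF library. The poorly counted mt-Co2 was at 4.65, 3.50 and 2.16 CPM (-0.73, SE 0.36, adjusted p = 0.370, edgeR). Levels of 3.0, 4.02 and 3.24 CPM were found for mt-Co3 (-0.29, SE 0.28, adjusted p = 0.604, edgeR). Those of mt-Atp6 were 2.10, 2.10 and 1.85 CPM (-0.71, SE 0.43, adjusted p = 0.432, edgeR). All 3 overlapped with GDNF.

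An unadjusted p under 0.05 was reached by 6 of the 10 genes, all lower with both agents than with GDNF, against 7.81% of all tested genes. Groups did not overlap for 5 of 10 in this direction, against 7.12% of all genes. By adjusted p 0 of 10 genes and 0.0% of all genes passed, with 1582 genes (14.0%) at an unadjusted p under 0.05 in either direction and 0 called by DESeq2 or limma-voom. The median of the 10 was -0.71 and that of all tested genes 0.00058. Without GDNF replicate 3 it was -0.21, with 6 of 10 at an unadjusted p under 0.05, all lower (6.1% of all genes in either direction), and mt-Atp6 (0.19) and mt-Co3 (0.01) were then on the other side of 0. Without GDNF replicate 1, 6 of the 10 genes passed in a fit that called 1990 genes.

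**Figure D4:**
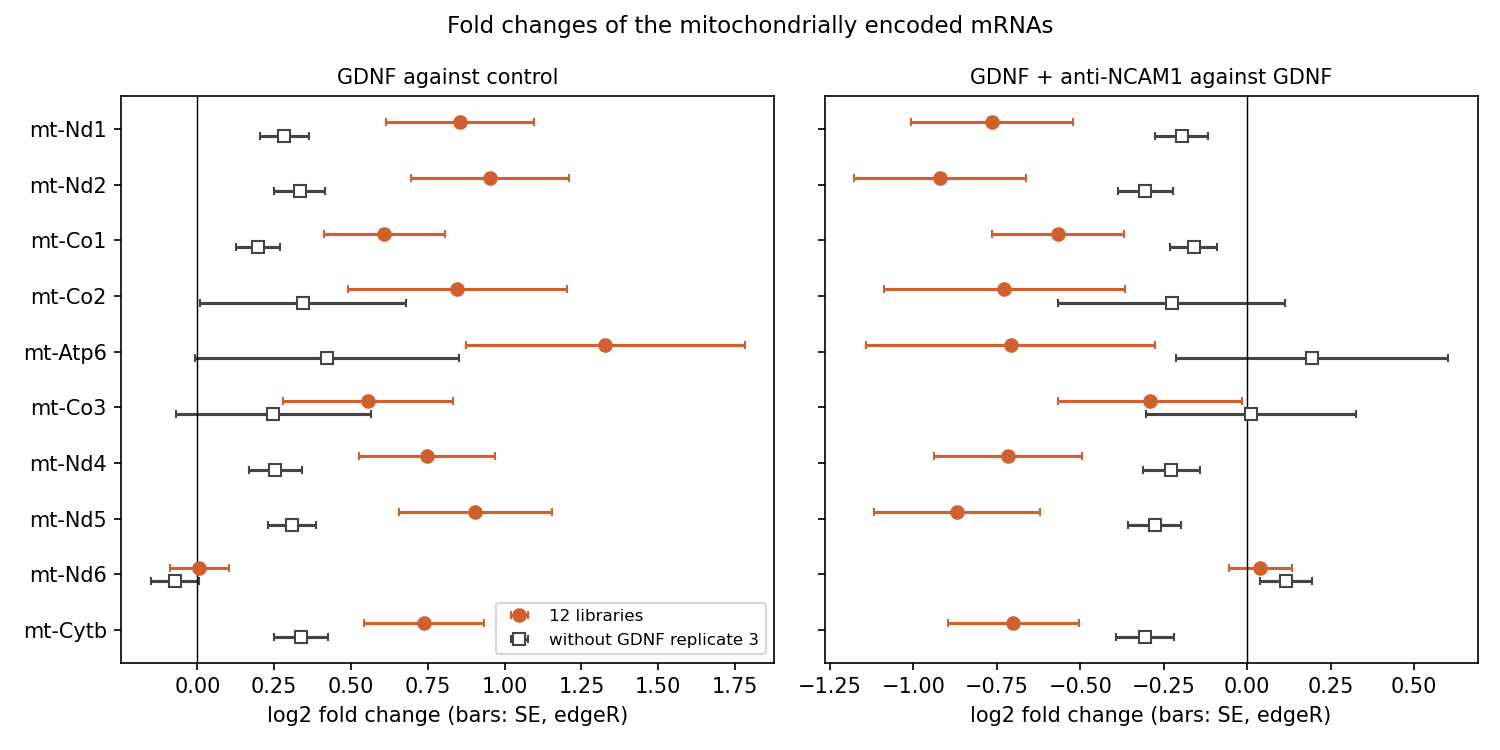
Log2 fold change with SE (edgeR) of each of the 10 genes for GDNF against control (left) and for GDNF with anti-NCAM1 against GDNF (right), with all 12 libraries (filled circles) and without GDNF replicate 3 (open squares). The 6 well-counted heavy-strand messages keep their side of 0 without that library but shrink to 0.20 to 0.34 on the left and to -0.31 to -0.16 on the right, while mt-Nd6 stays close to 0.

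With anti-NCAM1 alone the 6 well-counted heavy-strand messages lay between 0.874 and 1.27-fold of the control mean in every library. The libraries read 3426, 3002 and 3846 CPM for mt-Nd1, and 4477, 3815 and 4953 CPM for mt-Nd2. For mt-Co1 they read 28088, 24388 and 29016 CPM. In each of these genes replicates 1 and 3 were above the controls, and replicate 2 was among or below them. The same split was seen in mt-Nd4 (2495, 1879 and 2542 CPM), in mt-Nd5 (4528, 3792 and 4563 CPM) and in mt-Cytb (2766, 2262 and 2982 CPM). The low counts gave 4.65, 2.26 and 3.73 CPM for mt-Co2, 2.79, 3.96 and 3.25 CPM for mt-Co3 and 1.86, 3.11 and 2.44 CPM for mt-Atp6. The light-strand message went the other way: mt-Nd6 was at 291, 340.2 and 267 CPM, below all controls. Against control, 9 of 10 genes were higher (51.1% of all genes) and 1 lower, from -0.24 on the log2 scale for mt-Nd6 (SE 0.096, adjusted p = 0.853, edgeR) to 0.92 for mt-Atp6 (SE 0.48, adjusted p = 0.853, edgeR). By an unadjusted p under 0.05, 1 of 10 differed, in the lower direction, against 2.67% of all genes. Groups did not overlap for 1 gene that was higher (mt-Atp6; 9.02% of all genes) and for 1 that was lower (mt-Nd6; 7.85%). No gene passed by adjusted p (0.0% of all genes, with 599, or 5.29%, at an unadjusted p under 0.05 in either direction by edgeR, and 0 called by DESeq2 or limma-voom). With GDNF replicate 3 left out of the shared estimate of the spread, 1481 genes (13.1%) had such a p. In that fit 8 genes were called, and 0 of the 10. The median of the 10 was 0.17, against 0.0045 for all genes, and it lay between 0.082 without anti-NCAM1 replicate 3 and 0.26 without anti-NCAM1 replicate 2. With trends on GC content and length removed it was -0.019.

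With both agents, the messages were close to control and the replicates close to each other. All 10 log2 fold changes against control were above 0, as were 51.7% of those of all genes, from 0.03 for mt-Nd4 (SE 0.22, adjusted p = 0.9996, edgeR) to 0.62 for mt-Atp6 (SE 0.50, adjusted p = 0.9996, edgeR), with a median of 0.04 against 0.0043 for all genes (-0.041 for the 10 with trends on GC content and length removed). The groups did not overlap for 3 of 10 genes (mt-Cytb, mt-Nd6 and mt-Atp6, all higher), where 7.06% of all genes did so, and 0 of 10 had an unadjusted p under 0.05, against 1.95% of all genes. Against anti-NCAM1 alone, 8 genes were lower and 2 higher with both agents, from -0.30 for mt-Atp6 (SE 0.46, adjusted p = 0.9995, edgeR) to 0.28 for mt-Nd6 (SE 0.096, adjusted p = 0.9995, edgeR). The median was -0.08, against -2.3e-05 for all genes, and 0.0066 with trends on GC content and length removed. Only mt-Nd6 had an unadjusted p under 0.05 (1 of 10, against 1.26% of all genes that were higher) and groups that did not overlap (1 of 10, against 5.52%). In a fit of these groups alone it passed (edgeR adjusted p = 0.0327, 1 of 5 genes called), with all 3 libraries that received both agents above all 3 with anti-NCAM1. By adjusted p 0.0% of all genes passed in either comparison, with 221 genes (1.95%) against control and 284 (2.51%) against anti-NCAM1 at an unadjusted p under 0.05 (edgeR), and 0 called by DESeq2 or limma-voom. With GDNF replicate 3 left out of the shared estimate of the spread, these became 506 genes (4.47%) and 712 (6.28%), with 0 called.

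The interaction tests whether the effect of GDNF differed between cells without and with the antibody. It was negative for 9 of 10 genes, from -1.63 for mt-Atp6 (SE 0.65, adjusted p = 0.258, edgeR) to 0.28 for mt-Nd6 (SE 0.14, adjusted p = 0.311, edgeR), with a median of -0.87 against -0.0090 for all genes. An unadjusted p under 0.05 was found for 7 of 10, all negative, against 8.93% of all genes. None passed by adjusted p (0.0% of all genes; 1900, or 16.8%, at an unadjusted p under 0.05 in either direction by edgeR, and 0 called by DESeq2 or limma-voom). The median was -0.37 without GDNF replicate 3, where 6 of 10 had an unadjusted p under 0.05 and were negative and 1, mt-Nd6 (0.36), was positive (1698 of all 11332 genes in either direction). That fit called 14 genes by adjusted p (edgeR), none of them among the 10. Without GDNF replicate 1, 7 of 10 passed in a fit that called 1887 genes.

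Across libraries the 6 well-counted heavy-strand messages varied as a block and mt-Nd6 did not follow. Pairwise Pearson r of log2 CPM among the 6 was 0.984 to 0.998 over 12 libraries and 0.917 to 0.989 over the 11 without GDNF replicate 3. Against these, mt-Nd6 had r of 0.017 to 0.140 over 12 and of -0.748 to -0.669 over 11 libraries. These are descriptions: the points share library depth and scaling. For every 100 normalised counts of mt-Nd5 there were 8.97 to 9.55 of mt-Nd6 in 8 libraries, which comprised all control libraries, all that received both agents, GDNF replicate 1 and anti-NCAM1 replicate 2. The other 4 had lower ratios, falling from 6.43 and 5.84 in the first and last anti-NCAM1 replicates to 5.57 in GDNF replicate 2 and 3.27 in GDNF replicate 3. The block was not fully rigid either, since mt-Nd2 per 100 counts of mt-Co1 ran from 15.2 to 17.9 in 11 libraries and reached 22.3 in GDNF replicate 3.

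**Figure D5:**
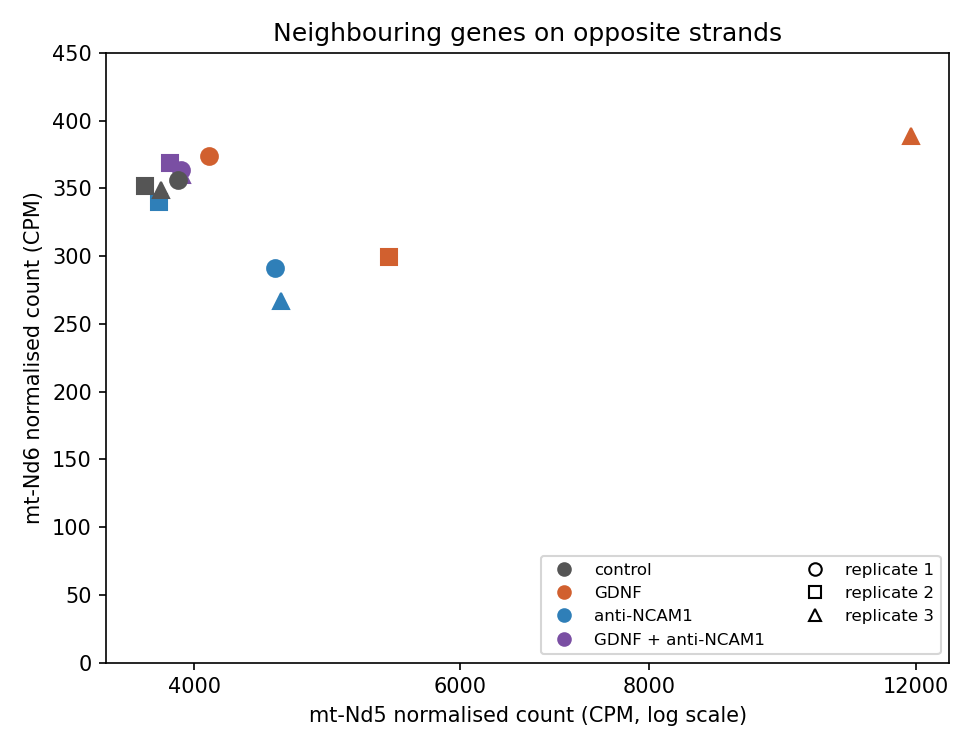
Normalised count of mt-Nd6, from the light strand, against that of its neighbour mt-Nd5, from the heavy strand (CPM, log scale on the horizontal axis), with 1 point per library. Mt-Nd5 spans 3709.9 to 11909 CPM, whereas mt-Nd6 stays between 267 and 389 CPM and is lowest in anti-NCAM1 replicates 1 and 3 and GDNF replicate 2.

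Base composition moved with these library differences. The slope of log2 expression on gene GC content was -0.30 per 10 points of GC in GDNF replicate 3, -0.14 in GDNF replicate 2, -0.07 and -0.08 in anti-NCAM1 replicates 1 and 3, and between 0.04 and 0.11 elsewhere. The 4 libraries with negative slopes are those with the lower ratio of mt-Nd6 to mt-Nd5. The 10 genes are AT-rich, with 34.1% (mt-Nd6) to 39.9% (mt-Co1) GC. With the trend on GC and length removed, the median log2 fold change of the 10 was 0.48 for GDNF against control, -0.50 for both agents against GDNF and -0.47 for the interaction. For mt-Nd6 it was -0.35 for GDNF against control (SE 0.13, adjusted p = 0.406, edgeR), -0.45 for anti-NCAM1 against control, 0.27 for both agents against GDNF and 0.72 for the interaction. These values include GDNF replicate 3.

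The mitochondrial rRNAs come from the same heavy strand and did not follow the messages in GDNF replicate 3. The small rRNA, mt-Rnr1, was at 643, 626 and 398 CPM in control and at 452, 639 and 502 CPM with GDNF (log2 fold change -0.06, SE 0.19, adjusted p = 0.867, edgeR). The large rRNA, mt-Rnr2, was at 741, 732 and 624 CPM in control and at 661, 1160.0 and 1051 CPM with GDNF (0.45, SE 0.17, adjusted p = 0.178, edgeR). In both the groups overlapped. With anti-NCAM1 against control, mt-Rnr2 was at 0.51 (SE 0.17, adjusted p = 0.853, edgeR) and mt-Rnr1 at 0.40 (SE 0.19). With both agents against control they were at 0.19 (SE 0.17, adjusted p = 0.9996, edgeR) and -0.12 (SE 0.19). In these comparisons the groups of mt-Rnr2 did not overlap, as for 9.02% and 7.06% of all genes that were higher, and those of mt-Rnr1 did. Heavy-strand messages per rRNA count ran from 23.4 to 40.4 in 11 libraries and reached 66.0 in GDNF replicate 3. Pearson r of the 6 messages with mt-Rnr2 was 0.528 to 0.635 over 12 libraries and 0.720 to 0.819 over 11. With mt-Rnr1 it was -0.0075 to 0.098 over 12 and 0.435 to 0.543 over 11. Of the 27 other genes of the mitochondrial genome 5 were tested, of which 3 were higher and 2 lower with GDNF, and 0 passed. The tryptophan tRNA gene mt-Tw, which directly follows mt-Nd2, had 1.15, 0.771 and 1.44 CPM in control and 1.88, 2.53 and 6.40 CPM with GDNF (1.69, SE 0.49, adjusted p = 0.165, edgeR, and 0.95 without GDNF replicate 3, where it was highest). The proline tRNA gene mt-Tp was at -0.39 (SE 0.32, adjusted p = 0.480, edgeR).

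By median, the nuclear-encoded partners differed by far less than the heavy-strand messages. Of 76 tested nuclear subunits of complexes I to V, 44 were higher and 32 lower with GDNF, their median log2 fold change was 0.04, and 0 passed. At an unadjusted p under 0.05 there were 16 higher and 5 lower, where 11.6% of all tested genes were higher and 8.7% lower. Without GDNF replicate 3 there were 12 and 3, and 47 of the 76 were higher, with a median of 0.04. Complex I had 24 of 37 higher with a median of 0.04, and the smallest p among them were those of Ndufs4 (0.38, SE 0.12, adjusted p = 0.167, edgeR) and Ndufs6 (0.39, SE 0.12, adjusted p = 0.169, edgeR), while Ndufa13 (-0.26) and Ndufb6 (-0.30) had the smallest p of the 13 that were lower. In complex II, which has no mitochondrially encoded subunit, 2 of 4 were higher (Sdha 0.11, Sdhd 0.08) and 2 lower (Sdhb -0.18, Sdhc -0.14), with a median of -0.03. Complex III had 4 of 9 higher and a median of -0.05, with the small subunits Uqcrh (0.35) and Uqcrb (0.50) higher, and the core subunit Uqcrc1 (-0.24) and cytochrome c1, Cyc1 (-0.38), lower. In complex IV 8 of 11 were higher with a median of 0.06, among them Ndufa4 (0.28) and Cox7b (0.19), while Cox6a1 (-0.25) and Cox8a (-0.21) were lower. ATP synthase had 6 of 15 higher and a median of -0.03, from Atp5mg (0.22) and Atp5pd (0.31) to Atp5f1d (-0.41) and Atp5mc2 (-0.39). Without GDNF replicate 3, complex III had 7 of 9 higher (median 0.044) and ATP synthase 11 of 15 (median 0.045). Among the genes named here, adjusted p was 0.165 (Uqcrh) to 0.750 (Sdhd) by edgeR. In GDNF replicate 3, where the 10 mitochondrial messages averaged 1.20 above control on the log2 scale, the 76 nuclear partners averaged -0.05. In GDNF with anti-NCAM1 against GDNF, 41 of the 76 were higher and 35 lower, with a median of 0.01 and 0 passing.

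The machinery that copies and processes mitochondrial RNA showed small differences in both directions, with more genes higher than lower with GDNF. Of 12 genes of mitochondrial DNA replication and transcription 7 were higher and 5 lower with GDNF (median 0.04, 0 passing). At an unadjusted p under 0.05 (edgeR) 3 were higher and 1 lower, where 11.6% of all tested genes were higher and 8.7% lower. Tfam, which packages mitochondrial DNA and starts its transcription, was at 0.26 (SE 0.098, adjusted p = 0.188, edgeR), and Tfb2m, the partner that opens the promoter, at 0.32 (SE 0.12, adjusted p = 0.181, edgeR). The mitochondrial RNA polymerase Polrmt was at -0.27 (SE 0.16, adjusted p = 0.352, edgeR) and the DNA polymerase subunit Polg at -0.25 (SE 0.090, adjusted p = 0.178, edgeR). Among 21 genes of mitochondrial RNA processing and decay 14 were higher and 7 lower (median 0.12, 0 passing, and 0.031 without GDNF replicate 3). Over the 12 libraries 6 of these were higher and 2 lower at an unadjusted p under 0.05 (edgeR). Pnpt1, a component of the RNA degrading complex, was at 0.41 (SE 0.11, adjusted p = 0.165, edgeR), and Grsf1, an RNA granule protein, at 0.27 (SE 0.099). Fastk, which in human and mouse cells stabilises the mt-Nd6 message, was at -0.34 (SE 0.12, adjusted p = 0.169, edgeR), and Tbrg4 at -0.26 (SE 0.12). Of 4 tested regulators of mitochondrial biogenesis, Gabpa (0.28) and Nrf1 (0.10) were higher and Pprc1 (-0.23) and Esrra (-0.39) lower, with 0 passing. All 6 tested nuclear copies of mitochondrial DNA were higher with GDNF (median 0.63, 0 passing), among them Gm10925 (0.76, SE 0.19, adjusted p = 0.165, edgeR) and Gm29216 (0.88, SE 0.27, adjusted p = 0.167, edgeR). Of these 6 copies, 5 were higher without GDNF replicate 3, with a median of 0.34. They share 31-base words with the mitochondrial genes, so their counts may not be separate measurements. The 3 RNAs retained in the nucleus were all lower, Malat1 at -0.36 (SE 0.24) and Neat1 at -0.14 (SE 0.14), with 0 passing.

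Genes outside the mitochondrial genome whose level was most like the mean of the 10 over the 12 libraries were Smc1a (Pearson r = 0.997), Serbp1 (0.994), B2m (0.992), Top1 (0.992) and Rtraf (0.989). They too were highest in GDNF replicate 3: Smc1a, a cohesin subunit, averaged 134 CPM in control and read 139.6, 152 and 234 CPM with GDNF, and B2m, the invariant chain of class I histocompatibility molecules, averaged 400.4 CPM in control and read 426, 468 and 768 CPM. Over the 11 libraries without it they were Rsl1d1 (0.984), Npm1 (0.978), Matr3 (0.973), Smc1a (0.971) and Sarnp (0.971). Only Smc1a was on both lists, and likeness over so few libraries describes which libraries are high and nothing further.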

How the data were processed

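RNA from 12 samples of EO771-tdT-LM2 cells was extracted with a Quick-RNA kit and sequenced as Illumina libraries, per the labels' protocols. The authors deposited raw counts per gene, whole and not scaled. Per the submitters' processing notes, FastQC, MultiQC and kallisto 0.46.2 were used, and the builds GRCm39 and mm10 are named without a role. Neither the annotation nor the treatment of reads matching several genes is given in the sources used here. Symbols were matched to 52081 of 55414 identifiers, and the rest held 6.55% of the counts. No sample was left out.

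A filter on low counts (filterByExpr of edgeR, 10 counts and a total of 15) left 11332 genes. After TMM scaling, edgeR 4.0.16 under R 4.3.3 fitted the 4 groups together without covariates (quasi-likelihood F test, 2-sided), with p-values adjusted by Benjamini-Hochberg over all tested genes in each of 6 comparisons and called at 0.05. SE is the log2 fold change divided by the square root of F. Library differences use log2(CPM + 2). On simulated counts for GDNF against control with 200 of 11332 genes changed by 1 on the log2 scale, edgeR recovered 92.5% of them, and with none changed it called 0. The simulation held no GC trend and no library set apart as GDNF replicate 3 was. The recovered share therefore does not give the power to find changes in the present data. Alternatives were DESeq2 1.42.0, limma-voom (limma 3.58.1), other scalings, no filter, fits of the compared groups alone, a replicate block, removal of GC and length trends (lowess span 0.3, 99.8% of genes covered), leaving out each library and, added after seeing the data, the counts of nuclear copies. Shared 31-base words were counted with Python 3.11.15 in the GENCODE M21 annotation of GRCm38.

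The 10 genes, the gene lists and the tests were chosen with earlier results of these data known. Named are all 10 genes, the 2 tested genes of smallest p per direction in each list for GDNF against control, the 5 most alike genes over 12 and over 11 libraries, and the markers that describe the cells.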

Additional observations from a re-analysis of the deposited data

How the results depend on the processing

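The absence of calls depended on settings. With no filter on low counts the adjusted p passed 736 genes for GDNF against control, 8 for anti-NCAM1 against control, 4 for both agents against control, 348 for both agents against GDNF, 4 for both agents against anti-NCAM1 and 403 for the interaction, and of the 10 mitochondrial genes it passed 8, 0, 0, 6, 0 and 6. In fits of the compared groups alone it passed 33 genes for anti-NCAM1 against control, 24 for both agents against control, and 5 genes with 1 of the 10 for both agents against anti-NCAM1. The unfiltered fit held every gene with any count, and the SE of mt-Nd2 for GDNF against control was 0.079 in it against 0.26 in the main fit. The cause was not tested. Leaving out single libraries gave 0 to 2714 genes and 0 to 8 of the 10 for GDNF against control, 0 to 1990 genes and 0 to 6 of the 10 for both agents against GDNF, 0 to 8 genes for anti-NCAM1 against control, and 0 to 1887 genes and 0 to 7 of the 10 for the interaction. The highest of these values came without GDNF replicate 1, except for the 8 genes, which came without GDNF replicate 3. Median log2 fold changes of the 10 then ran from 0.30 to 1.02 (GDNF against control), -0.95 to -0.21 (both agents against GDNF), 0.082 to 0.26 (anti-NCAM1 against control), -0.18 to -0.0068 (both agents against anti-NCAM1) and -1.08 to -0.37 (interaction). Single genes that changed sign when a library was left out were mt-Nd6 for GDNF against control (-0.073 to 0.11) and, for both agents against GDNF, mt-Nd6 (-0.063 to 0.12), mt-Co3 (-0.49 to 0.011) and mt-Atp6 (-1.03 to 0.19).

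With GC and length trends removed, the median was -0.019 for anti-NCAM1 against control, -0.041 for both agents against control, 0.0066 for both agents against anti-NCAM1, -0.50 for both agents against GDNF and -0.47 for the interaction, and with the replicate block added -0.023, -0.041, 0.0084, -0.46 and -0.45. Under that removal mt-Nd6 for GDNF against control was -0.35 (-0.36 with the block) and mt-Nd4 for both agents against control was -0.067 (-0.065 with the block). The former was also -0.00120 by limma-voom and -0.022 with library totals alone. Left out of the total, the most abundant feature raised the mean share of the 10 to 4.44% in control, 4.77% with anti-NCAM1 and 4.56% with both agents. With GDNF the mean share was then 6.80% (SD 2.90, n = 3). Same-numbered libraries had correlations of deviations of -0.23 to 0.12 over 18 pairs, against -0.27 to 0.39 over 36 pairs with other numbers. The numbers thus showed no sign of pairing, although large differences of single libraries could mask it. The replicate block gave a median of 0.73 for GDNF against control and changed no count of calls. Under the settings not named here (DESeq2, DESeq2 size factors, scaling without mitochondrial genes, and nuclear copies added) the medians moved by less than the spread between replicates and 0 genes were called. At 8 to 69 counts per library, mt-Co2, mt-Co3 and mt-Atp6 have little precision, and the cause of these low counts was not tested.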
